A study of Mus musculus with 5 samples.

Results

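Neuromuscular junction (NMJ) myonuclei were defined as nuclei of muscle fibers that carried at least 2 unique molecular identifiers (UMIs, one per captured transcript) summed over Chrne, Ufsp1 and Etv4, and the rule found 282 of them among 10505 myonuclei and 21156 nuclei that passed quality control. Chrne encodes the adult subunit of the muscle acetylcholine receptor (AChR), Ufsp1 a protease of the UFM1 pathway and Etv4 a transcription factor of the Ets family. Myonuclei were the nuclei in which the sarcomeric and triad genes Ttn, Neb, Trdn and Ryr1 took at least 1.5% of all UMIs, or 4% in the adult library. RNA and open chromatin were read from the same nuclei of mouse hindlimb muscle, with 1 library for each of 5 groups: wild type (WT) at E14.5, Cacna1s-/- (KO) at E18.5, WT at E18.5, WT at P5 and WT adult. WT animals were C57bl6n, and the KO carries a cassette in place of the coding region of Cacna1s, the voltage sensor that couples excitation to contraction, so that the fetuses are paralysed. Each library pooled many hindlimbs (56 at E14.5, 26 of the KO, 14 at E18.5, 8 at P5 and 4 of the adult), and nuclei sorted as positive and negative for PCM1, a protein that surrounds myonuclei, were mixed in equal volumes before loading. With 1 library for each group, values of different stages or genotypes are compared below with counting error only, while the contrast of NMJ myonuclei with the other myonuclei of the same library was measured 5 times.

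A muscle fiber is a syncytium, and the few nuclei beneath the motor nerve terminal transcribe a set of genes that the rest of the fiber keeps low. Agrin released by the nerve acts through LRP4 and the kinase MuSK to gather AChRs, neuregulin and agrin signalling acts on synaptic nuclei through Ets factors that bind the N-box, and electrical activity holds AChR genes down outside the synapse. The receptor of the fetus contains a gamma subunit (Chrng), which the epsilon subunit (Chrne) replaces after birth. Acetylcholinesterase (Ache), held in the cleft by the collagen tail Colq, ends each signal.

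Promoters of 4 genes of this receptor system are printed to show where letters of the N-box and of other muscle motifs do and do not occur in them. The following stretches of the 250 bases before the annotated start, without bases that belong to an exon, are RefSeq sequence of GRCm38.p6 in the direction of transcription, with the N-box (CCGGAA), the muscle E-box bound by MyoD family factors (CAGCTG), the AP-1 site (TGANTCA) and the TEAD site (GGAATG) in capitals, searched on both strands. Chrne lies at chr11:70619217-70619444 on the minus strand, Chrna1 at chr2:73580339-73580588 on the minus strand, Chrng at chr1:87205561-87205809 on the plus strand and Musk at chr4:58285712-58285959 on the plus strand.
Chrne: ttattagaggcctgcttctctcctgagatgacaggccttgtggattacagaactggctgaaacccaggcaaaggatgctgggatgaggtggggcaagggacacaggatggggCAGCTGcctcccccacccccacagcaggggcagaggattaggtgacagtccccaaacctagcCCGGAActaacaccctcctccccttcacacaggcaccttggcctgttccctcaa
Chrna1: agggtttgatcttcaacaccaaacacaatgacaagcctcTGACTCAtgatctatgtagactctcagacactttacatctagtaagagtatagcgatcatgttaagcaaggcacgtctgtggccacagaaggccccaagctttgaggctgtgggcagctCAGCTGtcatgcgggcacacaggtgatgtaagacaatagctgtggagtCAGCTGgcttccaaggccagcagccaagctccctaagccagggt
Chrng: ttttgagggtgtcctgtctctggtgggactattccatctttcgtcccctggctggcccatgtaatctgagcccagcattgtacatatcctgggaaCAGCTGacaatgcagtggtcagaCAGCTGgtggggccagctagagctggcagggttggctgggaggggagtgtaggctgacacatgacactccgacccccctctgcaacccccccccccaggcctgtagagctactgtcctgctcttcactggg
Musk: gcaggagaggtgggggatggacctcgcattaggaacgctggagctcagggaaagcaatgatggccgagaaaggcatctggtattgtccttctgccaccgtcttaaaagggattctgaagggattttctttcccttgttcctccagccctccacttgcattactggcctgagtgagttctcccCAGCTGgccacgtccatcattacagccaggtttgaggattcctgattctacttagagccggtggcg
In these windows Chrne held 1 N-box and 1 E-box, Chrna1 held 2 E-boxes and 1 AP-1 site, Chrng held 2 E-boxes, and Musk held 1 E-box. The windows of Chrnb1 and Ache, not printed, held neither an N-box nor an E-box. Of 11296 matched genes, 21.1% had an N-box within the 250 bases, 12.3% an E-box, 4.30% an AP-1 site and 10.9% a TEAD site. Of 147 matched genes that were higher in NMJ myonuclei in the test below, 10.9% had an N-box, 10.2% an E-box, 6.12% an AP-1 site and 12.9% a TEAD site. A match of letters is not a bound site.

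NMJ myonuclei were rare at every stage. The rule took 36 of 1809 myonuclei at E14.5 (1.99%, exact 95% binomial interval 1.40 to 2.74), 92 of 1563 at E18.5 (5.89%, 4.77 to 7.17), 86 of 1764 at P5 (4.88%, 3.92 to 5.99) and 34 of 4388 in the adult (0.775%, 0.537 to 1.08). KO muscle gave 34 of 981 (3.47%, 2.41 to 4.81), against 92 of 1563 in WT muscle of the same age. These shares depend on depth, because a deeper nucleus reaches 2 UMIs more easily. The median nucleus had 5163, 12450, 8342.5, 8712.5 and 5825 UMIs among NMJ myonuclei, against 4850, 10099, 6820, 6349 and 3354.5 UMIs among the other myonuclei, in the order E14.5, KO E18.5, WT E18.5, P5 and adult that the values below keep. After each nucleus was thinned to 2000 UMIs, the shares were 0.526%, 0.832%, 1.69%, 2.13% and 0.265%, with 99, 20, 26, 165 and 1367 shallower myonuclei left out. The adult share stayed the lowest, WT E18.5 and P5 changed places, and the interval of the KO share (0.360 to 1.63) overlapped that of WT E18.5 (1.11 to 2.47). Among nuclei that were not myonuclei, 0.932%, 0.846%, 2.63%, 1.31% and 1.11% also reached 2 UMIs of the rule genes, with median depths of 1229.5 to 6909 UMIs. In the adult this share was above that of myonuclei. In these cells Etv4 had 6.51 to 16.4 CPM, while Chrne had 0 to 4.29 CPM and Ufsp1 0.808 to 3.03 CPM. The intervals cover counting error only. Any pair of libraries shared 15 to 42 cell barcodes, at most 0.873% of the smaller library, and these nuclei were kept.

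On mm10, Chrne lies at chr11:70614883-70619216 on the minus strand, Etv4 at chr11:101769742-101785371 on the minus strand and Ufsp1 at chr5:137294629-137295665 on the plus strand. The genes of the rule describe how each stage was selected, and their levels carry no test. Chrne had 0, 8.62, 19.6, 174 and 328 UMIs per 1000000 UMIs of the class (CPM) in NMJ myonuclei, against 0, 0.477, 0, 1.56 and 1.59 CPM in the other myonuclei. Ufsp1 had 402, 144, 295, 316 and 132 CPM in NMJ myonuclei, and Etv4 had 14.9, 181, 115, 112 and 128 CPM. The selection therefore moved from Ufsp1 to Chrne with age: 34 of 36 nuclei at E14.5 were chosen by Ufsp1 alone, while none of the 34 adult nuclei were. More than 1 of the 3 genes was seen in 1 of 36 nuclei at E14.5, 9 of 34 in the KO, 35 of 92 at E18.5, 63 of 86 at P5 and 25 of 34 adult nuclei. A count of 0 allows up to 14.9, 6.46, 3.26, 3.66 and 13.7 CPM in the NMJ myonuclei of the 5 libraries, taking 3 counts as the limit. At E14.5 no Chrne transcript was read in 201466 UMIs of these nuclei, and the name NMJ myonucleus rests there on Ufsp1, which also had 17.7 CPM in the other myonuclei. Just inside the threshold, 29, 16, 27, 16 and 14 nuclei had exactly 2 UMIs, and just outside it 178, 36, 88, 103 and 42 had exactly 1.

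Each rule gene could be compared where the other 2 had chosen the nuclei. This describes how far the 3 genes were read together and is no test of the class. Chrne was higher in nuclei chosen by Etv4 and Ufsp1 (log2 difference 5.51, SE 0.40). Etv4 was higher in nuclei chosen by Chrne and Ufsp1 (4.38, SE 0.63), and Ufsp1 in nuclei chosen by Chrne and Etv4 (3.71, SE 0.38). Chrne and Etv4 chose 1 nucleus at E14.5 and 10 nuclei in the KO. At E14.5 this check was empty, since the gene left out had 0 UMIs in the chosen nuclei in each of the 3 cases. In the KO class, 24 of the 84 UMIs of Etv4 came from 1 of 34 nuclei. Cacna1s gave 0 UMIs in the 464233 UMIs of KO NMJ myonuclei and 0.764 CPM in the other KO myonuclei, against 101 to 269 CPM in the NMJ myonuclei of the 4 WT libraries.

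Nuclei within the class differed widely. As a measure that the rule did not use, the UMIs of 4 other AChR subunit genes and 9 genes known to mark synaptic nuclei were summed per nucleus and scaled to 10000 UMIs. The median was 22.2, 31.5, 37.5, 81.7 and 81.6 in NMJ myonuclei, against 10.7, 12.4, 8.49, 13.1 and 6.10 in the other myonuclei. The share of NMJ myonuclei above the 90th percentile of the other myonuclei was 38.9% at E14.5, 70.6% in the KO, 70.7% at E18.5, 82.6% at P5 and 73.5% of the adult class. NMJ myonuclei ranged from 3.97 to 235 at P5 and from 1.56 to 231 in the adult, so the lowest of them lay among ordinary myonuclei. In the adult, nuclei with 1 rule gene had a median of 13.2 and nuclei with more had 107, and nuclei with exactly 1 UMI, outside the class, had 9.50. At E18.5 these medians were 21.5, 55.5 and 10.4, and in the KO they were 30.8, 39.8 and 23.5. At E14.5 nuclei with exactly 1 UMI had a median of 17.1 and at P5 one of 15.3.

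**Figure D1:**
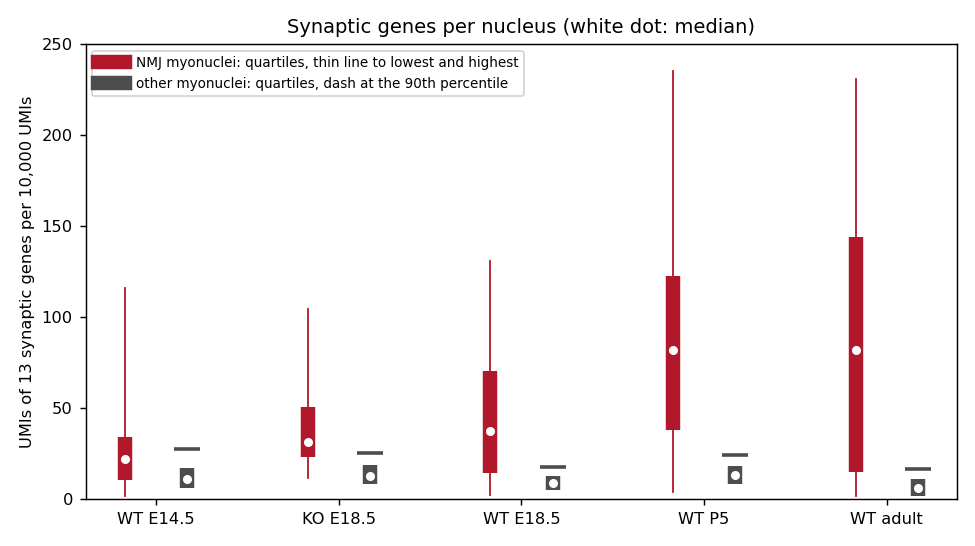
UMIs of 13 AChR and synaptic marker genes per nucleus, scaled to 10000 UMIs, for NMJ myonuclei and the other myonuclei of each library. Medians of NMJ myonuclei were 22.2 at E14.5 and 81.6 in the adult, against 10.7 and 6.10 in the other myonuclei.

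Across the transcriptome, NMJ myonuclei differed from the other myonuclei of their library at a small set of genes. Of 15251 genes tested, 208 were higher (1.36%) and 164 lower (1.08%) in NMJ myonuclei at an adjusted p under 0.05, in an edgeR quasi-likelihood fit of summed counts with the library as a block. Of these, 99 of the higher genes and 139 of the lower genes lay on the same side in all 5 libraries. A side is the sign of the CPM difference, so 0 UMIs in the smaller NMJ sum can count as lower. Of all genes, 33.4% to 46.9% lay higher and 52.7% to 64.2% lower in a library. The counts of higher and lower genes on the same side are therefore not comparable. The median of all genes was -0.18 on the log2 scale. Without scaling beyond library totals it was -0.03 and the counts were 233 higher and 72 lower, so the number of lower genes depends on the scaling. Without the library block no gene passed (515 had an unadjusted p under 0.05). Calls that did not hold throughout are given below with the number of alternatives in which they held. An alternative is another choice of nuclei, filter, scaling or tool, or a library left out, with the block kept. The alternative without nuclei with markers of other cells counted the macrophage gene Mrc1, which was itself higher in NMJ myonuclei. It kept 20 of 36, 12 of 34, 18 of 92, 8 of 86 and 24 of 34 NMJ myonuclei, and why calls were lost in it was not tested.

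**Figure D2:**
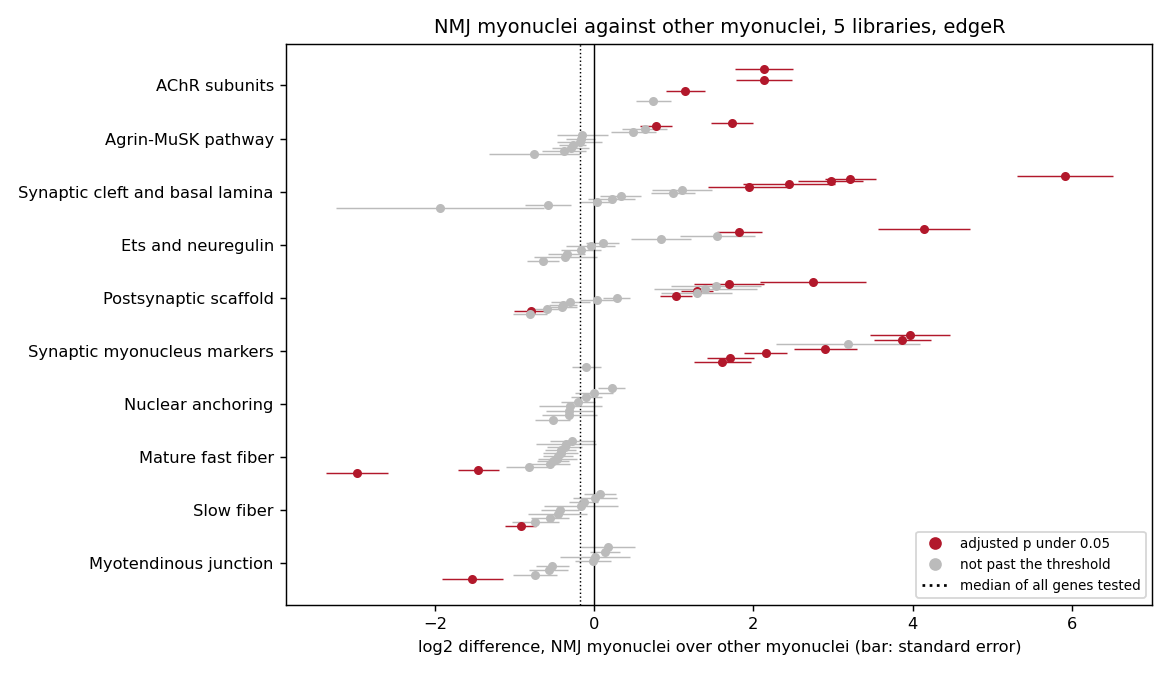
Log2 difference of NMJ myonuclei over the other myonuclei for each gene of the lists, with genes past an adjusted p of 0.05 marked. AChR subunits had a median of 1.64 and synaptic marker genes one of 2.53, against -0.18 for all genes tested.

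Most AChR subunit genes were higher in NMJ myonuclei, and their levels changed differently with age. Of the 4 subunits other than Chrne, 3 were higher and none lower, with a median log2 difference of 1.64. Chrna1, the subunit that binds acetylcholine, had 134, 192, 139, 191 and 27.4 CPM in NMJ myonuclei, against 56.6, 76.7, 23.7, 27.5 and 0.309 CPM in the other myonuclei (log2 2.13, SE 0.35, adjusted p = 0.0016). Chrnd (delta) had 39.7, 131, 109, 62.1 and 0 CPM, against 16.6, 53.2, 22.2, 3.89 and 0 CPM (log2 2.14, SE 0.36, adjusted p = 0.0023). Both genes lay above the other myonuclei in every library in which they were read, and Chrnd gave no UMI in either class of the adult (0 UMIs allow up to 13.7 CPM in NMJ myonuclei). Chrng, the fetal subunit, had 164, 226, 187, 19.5 and 0 CPM in NMJ myonuclei, against 70.0, 137, 76.4, 4.41 and 0.0514 CPM (log2 1.15, SE 0.24, adjusted p = 0.011). Its call held in 15 of 18 alternatives and was lost without the E18.5 library (adjusted p = 0.053), without nuclei with markers of other cells (0.058) and when Chrne and Etv4 alone chose the nuclei (0.35). Within the class Chrng had 19.5 CPM at P5, against 187 CPM at WT E18.5. Chrne had 174 CPM at P5, against 19.6 CPM at WT E18.5. Chrne helped to choose the nuclei, so its values describe the selection and are no measure of a change with age. Chrnb1, the beta subunit, had 243, 269, 264, 284 and 119 CPM, against 197, 165, 176, 165 and 19.5 CPM, and did not pass (log2 0.74, adjusted p = 0.088).

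Of the Agrin-MuSK pathway the receptor kinase and its co-receptor were higher. Among 11 genes Musk and Lrp4 rose, none fell, and the median was -0.17. Musk had 571, 722, 565, 859 and 1154 CPM in NMJ myonuclei, against 369, 302, 104, 207 and 128 CPM in the other myonuclei (log2 1.73, SE 0.26, adjusted p = 0.00076). The fold was 1.55 (95% counting interval 1.27 to 1.86) in the E14.5 library and 9.03 (7.90 to 10.3) in adult muscle. Lrp4 had 204, 183, 337, 369 and 155 CPM, against 138, 134, 207, 145 and 44.5 CPM (log2 0.77, SE 0.20, adjusted p = 0.039), a call that held in 13 of 18 alternatives. Lrp4 was not called without the E18.5 (adjusted p = 0.080) or P5 (0.22) library, and its log2 difference was 0.30 without nuclei with markers of other cells (0.65). Rapsn, which ties receptors into clusters, and Dok7, the activator of MuSK inside the fiber, had log2 differences of -0.30 and -0.18 (adjusted p = 0.61 and 0.83).

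Genes of the synaptic cleft and basal lamina included some of the steepest contrasts of the adult. Of 12 genes, 5 were higher and none lower, with a median of 1.05. Ache had 164, 66.8, 142, 149 and 173 CPM in NMJ myonuclei, against 55.9, 6.59, 11.5, 13.7 and 5.19 CPM in the other myonuclei (log2 3.22, SE 0.32, adjusted p = 7.1e-06). The end of Ache lies 163 bases before the start of Ufsp1 on the same strand of chromosome 5, and Gm42456 overlaps its start on the other strand, so reads could be assigned to the wrong gene; in nuclei chosen by Chrne and Etv4 alone the log2 difference of Ache was 2.65. Colq had 437, 401, 538, 625 and 1031 CPM, against 261, 164, 131, 74.4 and 4.89 CPM (log2 2.45, SE 0.58, adjusted p = 0.027), and Col13a1, a transmembrane collagen of the synapse, had 179, 330, 231, 485 and 452 CPM, against 65.0, 59.9, 47.0, 38.7 and 5.91 CPM (log2 2.97, SE 0.41, adjusted p = 0.00031). Levels of Colq in the other myonuclei were lower at each later WT stage, and those in NMJ myonuclei were higher at each. The call of Colq held in 14 of 18 alternatives and was lost without scaling beyond library totals (adjusted p = 0.084) and with DESeq2 (0.16). Col4a3, a collagen IV chain of the mature synaptic lamina, was read in no NMJ myonucleus of the 3 prenatal libraries, and had 23.2 CPM at P5 and 1168 CPM in the adult, against 0.259 and 7.92 CPM in the other myonuclei of those libraries (log2 5.92, SE 0.60, adjusted p = 7.7e-06), though it did not pass with DESeq2 (adjusted p = 0.18). Its partner Col4a4 passed narrowly (log2 1.95, adjusted p = 0.049), in 10 of 18 alternatives, and not without the P5 (0.063) or the adult (0.35) library.

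Of 10 Ets and neuregulin genes, Etv5 and Etv1 rose, none fell, and the median was 0.03. Etv5, the closest relative of Etv4 with Etv1, had 124, 418, 308, 329 and 807 CPM in NMJ myonuclei, against 51.2, 43.4, 19.8, 9.16 and 2.78 CPM in the other myonuclei (log2 4.14, SE 0.58, adjusted p = 0.00034). The 34 adult NMJ myonuclei, 0.775% of adult myonuclei, held 76.6% of all Etv5 UMIs of that library's myonuclei. Etv1 had 159, 101, 101, 89.0 and 22.8 CPM, against 64.3, 48.8, 24.9, 9.94 and 3.19 CPM (log2 1.82, SE 0.29, adjusted p = 0.00097). Dusp6, a phosphatase of ERK that ERK signalling induces, had 34.7, 58.2, 72.8, 48.7 and 82.1 CPM, against 8.07, 3.15, 3.53, 1.73 and 0.257 CPM (log2 4.38, SE 0.47, adjusted p = 1.4e-05). The groups did not overlap: the lowest NMJ value of Dusp6 was above the highest value of the other myonuclei. Fgf5, a fibroblast growth factor, differed by 4.09 (SE 0.51, adjusted p = 9.0e-05) on the log2 scale. The neuregulin receptor gene Erbb4 had a log2 difference of -0.64 (adjusted p = 0.11). Neuregulin itself, Nrg1, had 323 UMIs at WT E18.5, of which 288 came from 1 nucleus, and its summed level there describes that nucleus.

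**Figure D3:**
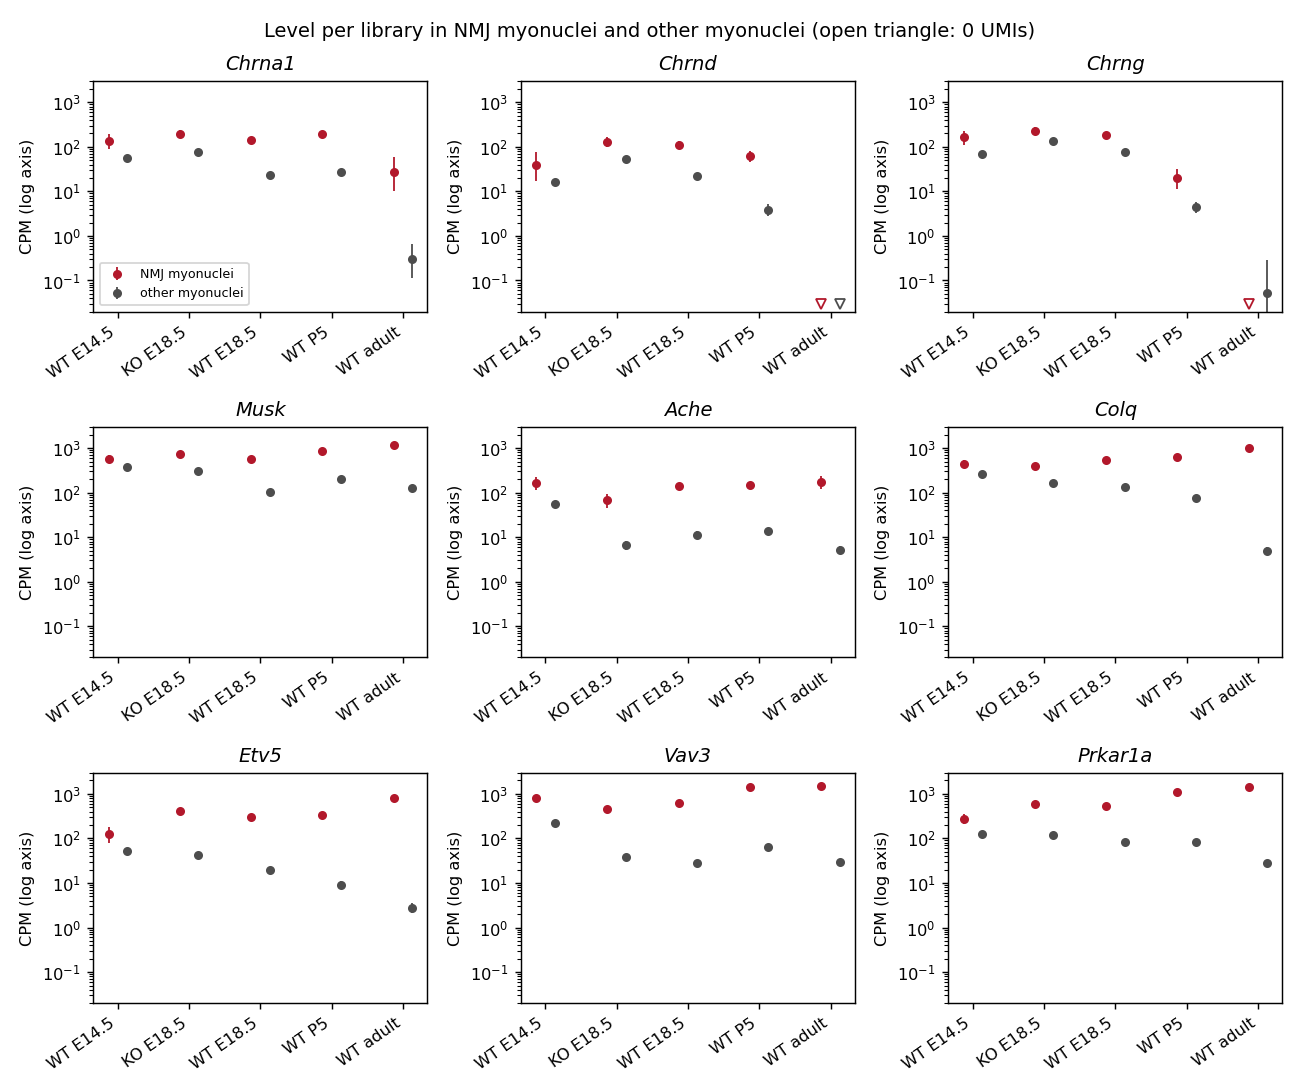
CPM on a log axis of selected genes in NMJ myonuclei and the other myonuclei of each library, with 95% counting intervals. Etv5 had 807 CPM in adult NMJ myonuclei, against 2.78 CPM in the other adult myonuclei.

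Scaffold genes of the postsynaptic membrane divided by member. Of 15 genes, 4 were higher and 1 lower, with a median of 0.28. Utrn, the dystrophin relative of the junction, had 893, 2176, 2143, 2537 and 1578 CPM in NMJ myonuclei, against 825, 1089, 846, 539 and 40.0 CPM in the other myonuclei (log2 1.69, SE 0.44, adjusted p = 0.043). The gap was 1.08-fold (0.929 to 1.26) in the E14.5 library and 39.4-fold (34.7 to 44.8) in adult muscle. The Utrn call held in 14 of 18 alternatives and was lost without scaling beyond library totals (adjusted p = 0.10). Ank3, encoding the ankyrin that holds sodium channels at the bottom of the folds, had 263, 1342, 2844, 6367 and 9004 CPM, against 128, 522, 854, 1827 and 3294 CPM (log2 1.29, SE 0.20, adjusted p = 0.00077). Ank3 was higher at each later WT stage in both classes, and its fold stayed between 2.05 and 3.49. Its channel, Scn4a, rose by 1.03 on the log2 scale (SE 0.20, adjusted p = 0.0062), a call that held in 16 of 18 alternatives. Without nuclei with markers of other cells the difference of Scn4a was 0.41 (adjusted p = 0.57). Phldb2, which captures microtubules at receptor clusters, had 1097, 465, 766, 1364 and 1761 CPM, against 673, 131, 246, 79.6 and 5.50 CPM (log2 2.75, SE 0.66, adjusted p = 0.031). Phldb2 passed in 14 of 18 alternatives, and not without scaling beyond library totals (adjusted p = 0.092) or with DESeq2 (0.12). The syntrophin gene Sntb1 was the lower one (log2 -0.80, adjusted p = 0.044), and that call was lost on leaving out any one library but E14.5 (adjusted p of 0.059 to 0.32). The 8 genes of nuclear anchoring, such as the nesprin Syne1, gave no call and a median of -0.25.

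Genes known to mark synaptic nuclei made up the list with the highest median. Of 8 tested, 6 rose and none fell, with a median of 2.53. Vav3, a guanine nucleotide exchange factor, had 829, 450, 614, 1401 and 1492 CPM in NMJ myonuclei, against 219, 37.7, 28.1, 63.5 and 29.4 CPM in the other myonuclei (log2 3.87, SE 0.36, adjusted p = 3.2e-06). Prkar1a, a regulatory subunit of protein kinase A, had 278, 582, 537, 1102 and 1409 CPM, against 123, 122, 84.9, 83.9 and 27.4 CPM (log2 2.90, SE 0.40, adjusted p = 0.00028). Pdzrn4, of a family of PDZ and RING proteins, had 174, 383, 451, 816 and 598 CPM, against 47.7, 48.0, 29.3, 34.4 and 2.47 CPM (log2 3.97, SE 0.51, adjusted p = 0.00014). Each of the 3 lay above the other myonuclei in every library, by the least at E14.5. Lrtm1 and Gramd1b rose by 2.16 and 1.71 on the log2 scale. Lrfn5, a synaptic adhesion molecule, did not pass over all libraries (log2 3.19, adjusted p = 0.070). Its levels were 9.93, 17.2, 23.9, 286 and 584 CPM, against 14.3, 18.7, 8.71, 6.14 and 1.70 CPM, so the classes overlapped before birth and were far apart after it.

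Outside the synaptic lists, the highest genes on the same side in all libraries, with mitochondrial, ribosomal protein, Gm-numbered and Rik genes left out of the ranking, included enzymes of glycans and factors known from other lineages. B4galnt3, which adds N-acetylgalactosamine to glycans, had 14.9, 66.8, 79.3, 228 and 319 CPM in NMJ myonuclei, against 3.88, 5.54, 6.29, 3.54 and 1.59 CPM in the other myonuclei (log2 4.65, SE 0.50, adjusted p = 1.6e-05). Hs3st3a1, a heparan sulfate sulfotransferase, had 14.9, 125, 11.9, 35.3 and 265 CPM, against 11.8, 8.59, 5.09, 6.57 and 0.720 CPM (log2 3.18, SE 0.67, adjusted p = 0.011). Its call held in 15 of 18 alternatives, and not without scaling beyond library totals (adjusted p = 0.051). Lmo2, a cofactor known from blood cell development, had 9.93, 153, 121, 64.6 and 27.4 CPM, against 3.46, 12.1, 4.48, 5.36 and 0.411 CPM (log2 3.82, SE 0.36, adjusted p = 3.2e-06). Col25a1, a transmembrane collagen required for motor innervation in the mouse, had 2665, 5374, 3023, 1917 and 164 CPM, against 1187, 2624, 334, 40.8 and 1.13 CPM (log2 3.20, SE 0.63, adjusted p = 0.0063). Col25a1 lay higher in NMJ myonuclei in every library, by 2.05-fold in the KO and by 145-fold in the adult, and was the 1 of 8 genes of a developmental fiber list to pass (median -0.02). The rest of the 15 highest of this ranking, which are not in the lists above, were Lrrc6, Muc3a, Agbl2 and Klhl6, with log2 differences of 3.37 to 4.52. Muc3a lies near Ache and Ufsp1 on chromosome 5.

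Among the 8 lowest genes on the same side in all libraries, ranked with the same kinds of genes left out, 3 gave no UMI in any NMJ myonucleus. These were Acvr1c, an activin receptor, with 392 UMIs in the other myonuclei, Pnpla3, a lipase, with 434, and Cd72, known from B cells, with 227. Taking 3 counts over the class as the limit, and weighting the level of the other myonuclei in each library by the UMIs of its NMJ myonuclei, they were at least 6.76-fold, 6.04-fold and 4.65-fold lower. These calls held in 13 of 15, 14 of 18 and 8 of 15 alternatives, and none of the 3 passed with at least 1 UMI of the rule genes (adjusted p of 0.56, 0.67 and 0.13) or with DESeq2 (0.092, 0.37 and 0.99). The remaining 5, among them the cadherin Cdh8 (log2 -3.74, SE 0.50, adjusted p = 0.00020) and the ephrin receptor Epha6 (log2 -4.16, SE 0.89, adjusted p = 0.013), had log2 differences of -4.16 to -3.55. Epha6 passed in 11 of 15 alternatives, and not without the E14.5 library (adjusted p = 0.20), while Cdh8 passed in 16 of 18, and not with DESeq2 (0.42).

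Few fiber type genes passed, and those that did were lower. Of 12 mature fast fiber genes, Myh2 and Mybpc2 were lower and none higher, with a median of -0.46. Myh2, the myosin of type IIA fibers, had 0, 2.15, 4.34, 6.09 and 68.4 CPM in NMJ myonuclei, against 0.210, 4.39, 10.6, 118 and 336 CPM in the other myonuclei (log2 -2.98, SE 0.39, adjusted p = 0.00018). Mybpc2, fast myosin binding protein C, differed by -1.45 (SE 0.26, adjusted p = 0.0027). Neither passed with DESeq2 (adjusted p = 0.12 and 0.092). Myh4, the myosin of type IIB fibers, had 1005 and 2965 CPM in NMJ myonuclei of P5 and adult muscle, against 1613 and 2987 CPM, and did not pass. Of 9 slow fiber genes Atp2a2, the slow calcium pump, was lower (log2 -0.92, SE 0.19, adjusted p = 0.011), in 15 of 18 alternatives and not without the P5 library (0.10), and the median was -0.43. The 4 genes that define myonuclei were kept out of the test. Their median share of the UMIs of a nucleus was 2.29%, 2.80%, 3.45%, 4.25% and 8.39% in NMJ myonuclei, against 2.58%, 3.23%, 3.93%, 5.59% and 10.1% in the other myonuclei. Myonuclei were chosen by this share.

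Col22a1, a marker of another specialized region of the fiber, the myotendinous junction, was the 1 of 8 genes of that list to pass, and it was lower. It had 288, 0, 124, 73.1 and 0 CPM in NMJ myonuclei, against 714, 67.1, 171, 118 and 58.7 CPM in the other myonuclei (log2 -1.53, SE 0.39, adjusted p = 0.039). The call held in 12 of 18 alternatives and was lost without the E14.5 (adjusted p = 0.089) or the adult (0.079) library. Of 9 genes known to respond to denervation, 1 rose and none fell, and the median of the list was -0.30. The 6 transcription factors Klf5, Tead4, Maf, Nfix, Thrb and Esr1, which the study examined in fiber maturation, gave no call in either direction and a median of -0.51.

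The gap between NMJ myonuclei and the rest of the fiber was wider after birth for many synaptic genes. A term for P5 and adult against the 3 prenatal libraries, which does not separate genotype from age, was past an adjusted p of 0.05 for 127 genes with a larger difference after birth (0.833%) and 52 with a smaller one (0.341%). The make-up of the class changed over the same split. More than 1 rule gene was seen in 2.78%, 26.5% and 38.0% of NMJ myonuclei before birth, against 73.3% and 73.5% after it. The part of this change in the age term was not tested. Of the lists, the larger difference held for 6 synaptic marker genes, 5 scaffold genes, 4 cleft genes and 2 AChR subunits. The subunits were Chrna1 and Chrnd, and their terms were not stable. That of Chrna1 was 0.98 without the adult library. That of Chrnd was -0.57 without nuclei with markers of other cells. With Mrc1 not counted as a marker, a choice made after seeing the data, it was 2.27 and did not pass. Without P5 it was -1.66, but no Chrnd UMI was then left after birth, so that value measures no difference. Etv5 had the folds 2.43, 9.62, 15.6, 35.9 and 291, with counting intervals of 1.55 to 3.62 for the first and 213 to 402 for the last. Colq had 1.67, 2.44, 4.09, 8.41 and 211, and Phldb2 had 1.63, 3.54, 3.12, 17.1 and 320. For these genes the wider gap lay mostly in the other myonuclei: from P5 to the adult stage their level outside the NMJ became lower, while the level within it did not.

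Ncam1 and Nes showed the same course without passing the test over all libraries. Ncam1, a cell adhesion molecule, had 1931, 2759, 1906, 1741 and 2034 CPM in NMJ myonuclei, against 1619, 2470, 1679, 326 and 11.2 CPM in the other myonuclei. Nes, the intermediate filament nestin, had 119, 60.3, 82.6, 99.9 and 109 CPM, against 93.7, 44.3, 82.3, 13.5 and 0.977 CPM. NMJ myonuclei thus kept the fetal level of both genes, and the age terms were 4.54 for Ncam1 and 4.01 for Nes on the log2 scale. For Col4a3, Lrfn5 and B4galnt3, in contrast, the level inside the class was itself higher after birth. The number of genes moved when a library was left out. On leaving out a prenatal library, 77 to 101 genes had a larger and 18 to 64 a smaller difference, against 127 and 52 with all libraries. Without P5 or the adult the term rests on a single library after birth.

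At E18.5 several synaptic genes had a lower ratio of KO to WT in NMJ myonuclei than in the rest of the fiber. Fewer had a higher one. Of 60 genes in the 6 synaptic lists, 7 (11.7%) had a higher ratio in NMJ myonuclei and 19 (31.7%) a higher one in the other myonuclei, with 95% counting intervals that did not overlap between the classes, against 3.4% and 3.33% of 15251 genes. Counting intervals are narrower for genes with more UMIs, so these shares also follow expression. Musk had 722 CPM in KO and 565 CPM in WT NMJ myonuclei at E18.5, a ratio of 1.28 (1.11 to 1.47), and 302 CPM in KO and 104 CPM in WT other myonuclei, a ratio of 2.91 (2.72 to 3.12). For Chrna1 the ratio of KO to WT was 1.38 (1.04 to 1.82) in NMJ myonuclei and 3.24 (2.82 to 3.73) in the other myonuclei, and for Chrnd it was 1.21 (0.865 to 1.68) and 2.39 (2.06 to 2.78). Col25a1 showed the widest separation of these genes, with 1.78 (1.68 to 1.88) in NMJ myonuclei and 7.85 (7.59 to 8.12) in the other myonuclei. These 4 genes are shown because their intervals did not overlap between the classes, and in NMJ myonuclei the interval of Chrnd alone among them held a ratio of 1. All 4 go in the direction of the 19, and Col25a1 is outside the 6 lists. Values of the 7 genes with a higher ratio in NMJ myonuclei are not given here. Chrnb1 had ratios of 1.02 (0.815 to 1.27) and 0.938 (0.879 to 1.00), near 1 in both classes.

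Other synaptic genes were lower in KO NMJ myonuclei. Ache had 66.8 CPM in KO and 142 CPM in WT NMJ myonuclei, a ratio of 0.469 (0.307 to 0.699), and its ratio in the other myonuclei was 0.574 (0.423 to 0.774). Lrp4 gave 0.544 (0.423 to 0.693) and 0.644 (0.602 to 0.688), and Ank3 gave 0.472 (0.432 to 0.515) and 0.611 (0.591 to 0.632). Lrtm1 had a ratio of 0.438 (0.300 to 0.626) in NMJ myonuclei and of 1.01 (0.866 to 1.19) in the other myonuclei. Hs3st3a1 was 10.5 times as high in KO NMJ myonuclei (5.43 to 22.1) and 1.69 times as high in the other myonuclei (1.20 to 2.39). All of these ratios compare 1 KO library with 1 WT library, so genotype and library cannot be told apart, and the KO class rests on 34 nuclei of which 19 were chosen by Ufsp1 alone, against 43 of 92 in WT.

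**Figure D4:**
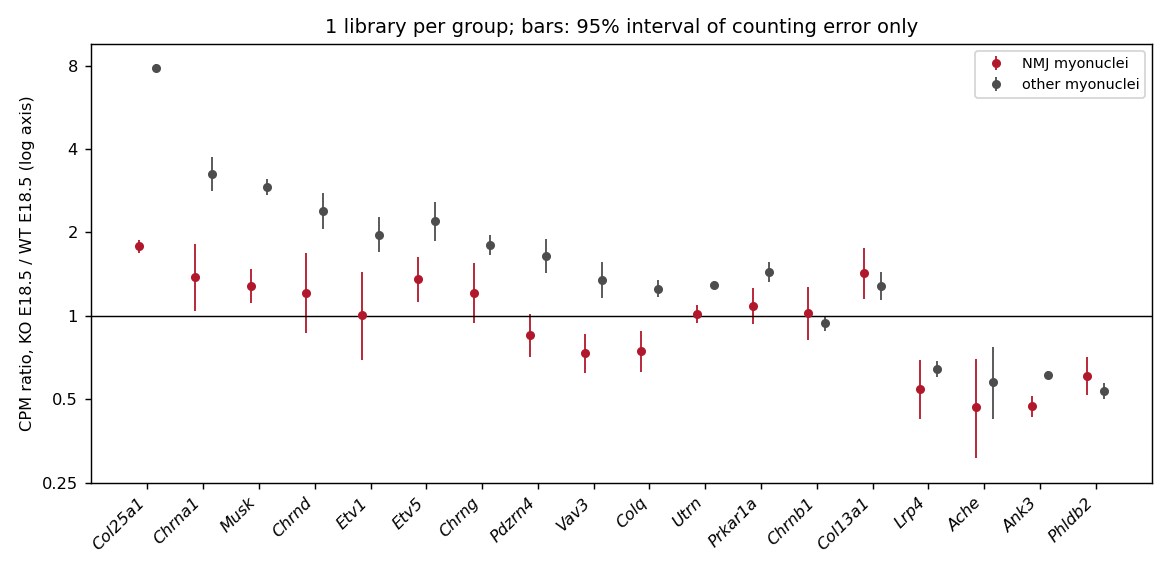
Ratio of KO to WT CPM at E18.5 on a log axis, with 95% counting intervals, for synaptic genes in NMJ myonuclei and in the other myonuclei. Musk had a ratio of 1.28 in NMJ myonuclei and 2.91 in the other myonuclei.

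Markers of other cells were read in NMJ myonuclei, and Mrc1, Egr3, Acta2 and Myh11 passed the test. Mrc1, a mannose receptor of macrophages, had 4.96, 28.0, 325, 994 and 461 CPM in NMJ myonuclei, against 3.25, 33.2, 27.9, 251 and 31.3 CPM in the other myonuclei (log2 2.22, SE 0.40, adjusted p = 0.0032), in 16 of 18 alternatives. The other 3 macrophage markers together had 17.4 CPM in NMJ myonuclei of WT E18.5, against 4.48 CPM in the other myonuclei. In each other library they were lower in NMJ myonuclei, and nuclei that were not myonuclei had up to 79.8 CPM. Adipocyte markers summed to 63.0 against 8.62 CPM at WT E18.5 and 60.9 against 42.5 CPM at P5, and were lower in NMJ myonuclei elsewhere. Neuron markers summed to 66.8 against 22.4 CPM in the KO and were lower in NMJ myonuclei elsewhere, and no adipocyte or neuron marker passed. Schwann cell markers summed to 0 to 142 CPM in NMJ myonuclei, 15.9 to 40.4 CPM in the other myonuclei and 70.9 to 204 CPM in nuclei that were not myonuclei, and none of the 5 tested passed. In the KO, Cdh19 had 37 UMIs in 4 NMJ myonuclei and Sox10 had 5 UMIs in 2. Mesenchymal markers summed to 435, 995 and 1244 CPM in the KO, WT E18.5 and P5 class, against 339, 923 and 983 CPM outside it. Muscle stem cell markers there summed to 90.5, 79.3 and 37.8 CPM, against 54.0, 46.9 and 29.7 CPM. Both sums were lower in NMJ myonuclei at E14.5 and in the adult, and none of these markers passed. Of the smooth muscle markers, Acta2 and Myh11 were lower in NMJ myonuclei (log2 -1.70 and -2.24, adjusted p = 0.0037 and 0.033), in 14 of 18 and 8 of 16 alternatives. The 3 tenocyte markers summed to 126 and 99.9 CPM in NMJ myonuclei of WT E18.5 and P5, against 46.7 and 49.9 CPM in the other myonuclei, and to at most 39.7 CPM in either class of the remaining libraries, and none passed. Nuclei with 3 or more UMIs of any other cell's markers, Mrc1 left out, made up 41.7%, 61.8%, 60.9% and 54.7% of NMJ myonuclei before adulthood, against 46.4%, 53.1%, 52.8% and 36.6% of the other myonuclei. In the adult they were none of the 34 NMJ myonuclei, against 1.93% of the other myonuclei. Without these nuclei, an alternative chosen after seeing the data, 248 genes were higher and 296 lower, and the part of such nuclei in the other values was not tested. The 5 spindle markers summed to 333, 455, 412, 228 and 4.56 CPM in NMJ myonuclei, against 298, 130, 143, 76.7 and 6.53 CPM in the other myonuclei, and their part in the other values was not tested. Of these markers, Egr3 passed (log2 2.99, adjusted p = 0.038) on 24 UMIs in 7 KO nuclei and 10 UMIs in 2 WT nuclei of E18.5, in 7 of 14 alternatives, and its sign was reversed in nuclei chosen by Chrne and Ufsp1 (log2 -0.43).

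Open chromatin was compared in the same way over 30238 regions that had a peak in all 5 libraries. NMJ myonuclei had higher accessibility at 23 regions (0.0761%) and lower accessibility at 2 (0.00661%). An edgeR fit without the library block gave 0 in either direction, with 888 regions at an unadjusted p under 0.05. The values rest on few fragments, between 0 and 30 per library in NMJ myonuclei at these regions, and leaving out a library gave 5 higher regions without E18.5 or P5, 11 without the adult and 30 at the most. Of the 23 regions, 9 (39.1%) lay within 100 kb of the start of a gene that was higher in the RNA of NMJ myonuclei, against 793 of 30238 (2.62%) of all regions. Only 5 of 23 (21.7%) lay within 1 kb of any annotated start, against 37.4% of all regions. Of 136 regions at the starts of the higher genes themselves, 4 were called higher, against 5 of 10225 start regions of all genes tested, which include them. Among the 136, 98 (72.1%) had a positive difference, with a median log2 of 0.18, against 35.4% and -0.08 for all start regions. At the start of Etv5 the log2 difference was 0.16, at that of Chrna1 0.59 and at that of Musk 0.89, none of them called.

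The following 5 of the 23 higher regions are those whose values are given below. Each is the middle 300 bases of the region on the plus strand of GRCm38.p6, with the same motifs in capitals: the region within Etv4 (chr11:101772421-101772720), the region within Dgkg near Etv5 (chr16:22469491-22469790), a region of chromosome 10 outside genes (chr10:98333604-98333903), the region within Poc1b near Dusp6 (chr10:99172095-99172394) and the region upstream of Ache (chr5:137286721-137287020).
Etv4 region: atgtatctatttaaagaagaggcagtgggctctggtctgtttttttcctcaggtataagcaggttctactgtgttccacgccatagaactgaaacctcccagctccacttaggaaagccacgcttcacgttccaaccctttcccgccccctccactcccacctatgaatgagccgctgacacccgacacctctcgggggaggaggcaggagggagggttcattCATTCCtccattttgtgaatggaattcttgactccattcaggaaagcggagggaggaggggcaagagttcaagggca
Dgkg region: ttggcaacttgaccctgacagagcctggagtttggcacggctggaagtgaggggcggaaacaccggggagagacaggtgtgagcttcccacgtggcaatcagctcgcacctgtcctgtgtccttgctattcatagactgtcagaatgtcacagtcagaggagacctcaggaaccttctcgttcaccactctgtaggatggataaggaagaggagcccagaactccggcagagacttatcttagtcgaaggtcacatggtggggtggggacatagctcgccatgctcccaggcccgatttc
Chromosome 10 region: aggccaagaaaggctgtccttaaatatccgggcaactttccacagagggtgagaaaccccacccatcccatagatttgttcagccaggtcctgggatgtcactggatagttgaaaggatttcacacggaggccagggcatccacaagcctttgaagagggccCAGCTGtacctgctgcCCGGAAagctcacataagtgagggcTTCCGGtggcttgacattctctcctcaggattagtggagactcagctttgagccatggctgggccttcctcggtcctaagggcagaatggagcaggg
Poc1b region: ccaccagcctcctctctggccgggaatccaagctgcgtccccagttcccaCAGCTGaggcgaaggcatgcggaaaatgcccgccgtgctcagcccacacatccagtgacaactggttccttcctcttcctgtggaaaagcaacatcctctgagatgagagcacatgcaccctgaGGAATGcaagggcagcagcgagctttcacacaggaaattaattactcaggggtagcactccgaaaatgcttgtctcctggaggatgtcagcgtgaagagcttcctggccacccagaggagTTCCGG
Ache region: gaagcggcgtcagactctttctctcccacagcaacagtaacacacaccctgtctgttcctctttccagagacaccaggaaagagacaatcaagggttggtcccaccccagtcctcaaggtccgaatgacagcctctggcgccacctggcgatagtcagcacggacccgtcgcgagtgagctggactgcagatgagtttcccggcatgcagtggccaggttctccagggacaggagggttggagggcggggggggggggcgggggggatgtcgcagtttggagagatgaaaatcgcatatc
The E-box was found in 12 of the 23 higher regions (52.2%), against 27.4% of 30220 regions, and the N-box in 5 (21.7%), against 15.4%. The AP-1 site was in 4 (17.4%), against 7.80%, and the TEAD site in 4 (17.4%), against 15.5%.

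The region within Etv4 (chr11:101772111-101773030, in the gene body and 12801 bases from its start) had 49.7, 76.3, 86.0, 62.0 and 42.1 CPM of fragments in NMJ myonuclei, against 30.4, 19.9, 24.3, 14.0 and 6.45 in the other myonuclei (log2 1.80, SE 0.29, adjusted p = 1.2e-05). Etv4 transcripts had been used to choose the nuclei. The region within Dgkg (chr16:22469055-22470225), 29921 bases from the start of Etv5, had 74.6, 54.5, 38.5, 47.9 and 33.7 CPM of fragments, against 22.1, 27.0, 11.3, 9.12 and 2.38 (log2 1.89, SE 0.34, adjusted p = 0.00028). In both regions every library was higher in NMJ myonuclei, and the level of the other myonuclei was lowest in the adult, as was their Etv5 RNA. The Dgkg region was not called without the P5 library (adjusted p = 0.23), and the Etv4 region was called under every alternative with the library block.

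The region within Poc1b (chr10:99171752-99172736), 90987 bases from the start of Dusp6, had 62.2, 21.8, 32.6, 22.6 and 84.1 CPM of fragments in NMJ myonuclei, against 34.4, 16.1, 16.8, 6.32 and 1.92 in the other myonuclei (log2 1.65, SE 0.37, adjusted p = 0.015). The chromosome 10 region (chr10:98333215-98334291), with no start within 100 kb of a gene that was higher, and 580653 bases from the nearest start, that of Atp2b1, had 37.3, 21.8, 29.6, 45.1 and 67.3, against 7.20, 14.2, 13.2, 14.3 and 3.76 (log2 1.80, SE 0.36, adjusted p = 0.0036). Upstream of Ache, a region (chr5:137286400-137287340) with its centre 649 bases from the start had 62.2, 43.6, 47.4, 50.7 and 84.1 CPM of fragments, against 32.5, 12.8, 18.6, 24.6 and 21.3 (log2 1.28, SE 0.29, adjusted p = 0.019). Each of these 3 lost its call without the P5 library (adjusted p of 0.23 to 0.26), and the first also without the adult (0.78). Transcripts of Ufsp1, which starts 163 bases beyond the end of Ache, had been used to choose the nuclei. The lower regions lay within Map2k6 (chr11:110498434-110499399, log2 -1.81, SE 0.40, adjusted p = 0.011) and Cdk14 (chr5:4992910-4993984, log2 -3.25, SE 0.77, adjusted p = 0.036). The Cdk14 region had 0, 1, 0, 0 and 1 fragments in NMJ myonuclei. In the adult it lay on the other side, with 8.41 CPM of fragments, against 1.54 in the other myonuclei.

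**Figure D5:**
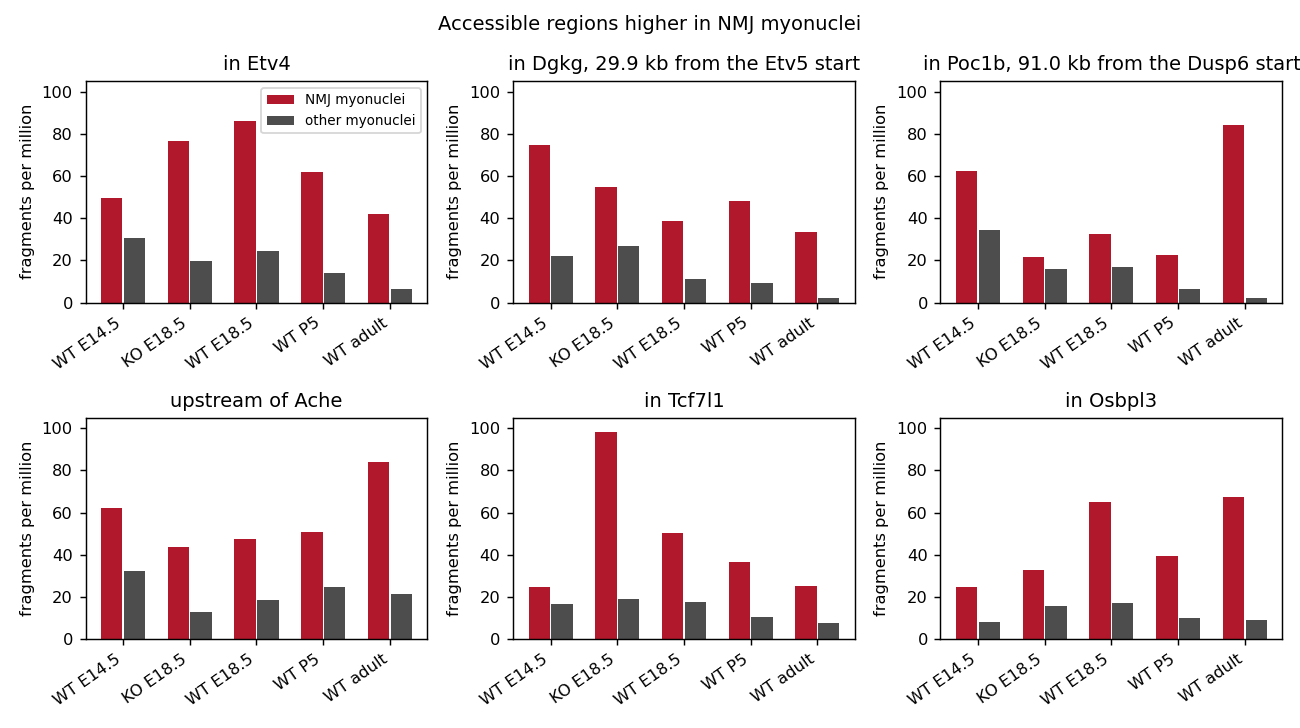
CPM of fragments in NMJ myonuclei and the other myonuclei of each library at regions with higher accessibility. The region within Etv4 had 86.0 CPM of fragments in NMJ myonuclei at E18.5, against 24.3 in the other myonuclei.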

How the data were processed

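Nuclei of 5 pooled hindlimb samples were profiled with the 10x Multiome kit, and the authors aligned reads to mm10 with Cell Ranger ARC 2.0.0, intronic reads included. The deposited values are UMI counts per gene and cut-site counts per peak. Nuclei with 400 to 25000 UMIs, under 10% mitochondrial UMIs and under 70000 peak counts were kept, and doublets were not called. Counts were summed per library and class of nuclei, and the classes were compared with edgeR 4.0.16 in R 4.3.3 (quasi-likelihood test, TMM scaling, library as a block because both classes come from the same library, Benjamini-Hochberg adjustment over all features). The rule genes and the 4 genes that define myonuclei stayed in library sizes and out of tests. Peak counts were halved to fragments. CPM, exact Poisson, binomial and conditional ratio intervals (95%) came from scipy 1.17.1. In simulated data, 14.7%, 74.0% and 81.4% of genes changed 2-fold, 4-fold and 8-fold were recovered. Alternatives used DESeq2 1.42.0, other thresholds and each library left out. Genes named were every list member, the 15 highest and 8 lowest calls on 1 side in all libraries (mitochondrial, ribosomal protein, Gm-numbered and Rik genes left out), the 5 highest and 5 lowest calls of the age term, and regions at their starts or among the 10 highest, while genes named for another reason are said to be so. Results of some named genes are not reported here, and these genes enter counts and medians over lists or over all genes only. The members and lists were chosen with earlier results of these data known.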

Additional observations from a re-analysis of the deposited data

Results flagged for a closer look

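For 35 of 181 named genes the difference between NMJ myonuclei and the other myonuclei was not the same after birth (P5 and adult) as before it (E14.5, KO E18.5 and WT E18.5), by an edgeR interaction term at an adjusted p under 0.05. The term is the log2 difference after birth minus that before it, and genotype and age are not separated in it. The make-up of the class by rule genes, which also changed over this split, is not separated either. Of the 35 genes, 27 had a larger difference after birth and 8 a smaller one. Some of them, such as Col4a3, Crym and Dcc, were named because they were the highest or lowest calls of this same term. They had therefore passed by their selection, and the count is no test. Of all 15251 genes tested, 127 (0.833%) had a larger and 52 (0.341%) a smaller difference. DESeq2 gave the same sign for all 35, with 12 past the threshold and 4 without an adjusted p. When nuclei with markers of other cells except Mrc1 were left out, 19 of 31 genes with a value remained past the threshold.

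Among synaptic genes the term was 3.46 for Etv5, 3.74 for Colq, 2.59 for Col13a1, 2.19 for Col4a5, 2.74 for Utrn, 1.92 for Sntb2, 4.54 for Ncam1, 4.01 for Nes, 4.56 for Phldb2, 1.71 for Chrna1 and 2.36 for Chrnd. For the marker genes of synaptic nuclei it was 1.55 for Vav3, 1.56 for Gramd1b, 2.90 for Pdzrn4, 2.44 for Prkar1a and 6.13 for Lrfn5. It was 3.23 for B4galnt3, 2.27 for Dusp6, 2.79 for Hs3st3a1, 4.28 for Col25a1, 2.36 for Myog, 2.14 for Piezo2 and 2.16 for Tnnt2. Without the adult library the terms of Etv5 (2.09), Utrn (1.33), Colq (1.62), Pdzrn4 (1.47) and Prkar1a (1.56) kept their sign and did not pass, and those of Hs3st3a1 and Sntb2 were 0.05 and -0.24. Without P5 that of Chrnd was -1.66, but Chrnd gave no UMI in either adult class, so that value measures no difference. The sign also changed for Chrnd (-0.57) and Vav3 (-0.33) without nuclei with other markers. With Mrc1 not counted as a marker, a choice made after seeing the data, their terms were 2.27 and 1.65. Those of Ncam1, Nes, Phldb2, Col25a1, Lrfn5 and Crym passed under every alternative.

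Crym, which binds thyroid hormone, had 69.5 and 73.0 CPM in NMJ myonuclei of P5 and adult muscle, against 1.82 and 0.154 CPM in the other myonuclei, with a term of 5.79. Before birth its fold was 0.966, 0.940 and 2.00 at E14.5, in the KO and at WT E18.5. Wscd1 had a term of 6.30 and at most 8 UMIs in any library of NMJ myonuclei. Col4a3 (9.99) and Pla2g7 (9.17) were at 0 UMIs in NMJ myonuclei before birth, so the size of their terms depends on the prior count. Pla2g7 had 36.6 and 315 CPM in NMJ myonuclei at P5 and in the adult, against 1.47 and 10.8 CPM in the other myonuclei.

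A smaller difference after birth was found for Myh1 (-1.86), Esr1 (-1.77) and Nrg1 (-2.60), the last resting on 1 nucleus at WT E18.5. The other 5 were at 0 UMIs in NMJ myonuclei after birth, so their terms are no measure of size. Dcc (-10.84) had 52, 69 and 86 UMIs before birth, 72 of the 86 in 1 nucleus. Sorcs1 (-10.52) and Syt1 (-9.05) had few UMIs. F13a1 (-10.09) had 72 UMIs, all in 1 nucleus of WT E18.5, and Kcnh8 (-10.05) had 26 UMIs in the KO, of which 23 were in 1 nucleus.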

How the results depend on the processing

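Counts of genes moved with the choice of nuclei and of tool more than the directions did. Against 208 higher and 164 lower genes, at least 3 UMIs of the rule genes gave 317 and 337, Chrne and Etv4 alone gave 342 and 311, no filter on low counts gave 333 and 392, and the fit without the replicate block gave 0 and 0 (515 genes at an unadjusted p under 0.05). The lower genes alone moved to 37 with at least 1 UMI, to 296 without nuclei with other markers except Mrc1 (chosen after seeing the data), to 55 with DESeq2 (259 higher) and to 72 without scaling beyond library totals. Leaving out each library gave 172 to 295 higher and 103 to 165 lower genes, the fewest without WT E18.5. Genes called higher without a library lay higher in that library in 55.6% (E14.5) to 89.5% (WT E18.5) of cases, against 33.4% to 46.9% for all genes over the 5 libraries. The age term gave 34 larger and 30 smaller differences without nuclei with other markers, 81 larger ones with Mrc1 not counted as a marker, and 33 and 10 with DESeq2 (6672 genes with an adjusted p), against 127 and 52. Smaller differences numbered 27 without scaling and 31 without a filter, and leaving out each library gave 32 to 111 and 15 to 220. Higher regions numbered 35, 14 and 9 with at least 1 UMI, at least 3 UMIs and nuclei of at least 4000 UMIs, and 0 without the replicate block (888 at an unadjusted p under 0.05), against 23, and lower regions 1 with at least 1 UMI, 1 with deeper nuclei, 0 with DESeq2 and 0 without the block, against 2. Leaving out each library gave 5 to 30 higher and 0 to 4 lower regions. The cause of these moves was not tested.

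The share of NMJ myonuclei with at least 1 UMI was 11.8% at E14.5, 7.14% in the KO, 11.5% at WT E18.5, 10.7% at P5 and 1.73% of adult myonuclei. With at least 3 it was 0.387%, 1.83%, 4.16% and 0.456% at E14.5, in the KO, at WT E18.5 and in the adult. A myonuclear share 2 times as high gave 0.595% at E14.5 and 2.20% in the KO, and leaving out nuclei with other markers gave 2.58% at WT E18.5 and 1.07% at P5. Thinned to 2000 UMIs the shares were 0.526%, 0.832%, 1.69%, 2.13% and 0.265%. The sign was reversed for Kcnh8 with at least 3 UMIs (-7.41), Egr3 in nuclei chosen by Chrne and Ufsp1 (-0.43) and Nrg1 with the higher myonuclear share (-1.75). Age terms reversed for Chrnd (-0.57) and Vav3 (-0.33) without nuclei with other markers, but not with Mrc1 left out of these markers (2.27 and 1.65). On leaving out libraries age terms spanned -1.66 (without P5) to 2.79 for Chrnd, -11.65 to 0.62 (without WT E18.5) for F13a1 and -0.24 (without the adult) to 3.69 for Sntb2. Without P5, Chrnd had no UMI after birth, so its value there measures no difference. No group was replicated, the E14.5 class rests on Ufsp1, and the adult and KO classes hold 34 nuclei each. Levels below the limit of 3 counts given for these libraries above could not be told from 0 there. The other myonuclei may still hold junctional nuclei that were read too shallowly to reach 2 UMIs.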

Other observations

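Some of the largest differences fell outside the rule for named genes, because 1 library lay on the other side, and were chosen after their values were seen. Tafa4, a secreted cytokine-like protein, had 0, 6.46, 146, 140 and 3001 CPM in NMJ myonuclei (E14.5, KO E18.5, WT E18.5, P5 and adult), against 0.629, 0.477, 1.12, 1.56 and 6.12 CPM in the other myonuclei (edgeR log2 6.81, SE 0.55, adjusted p = 1.5e-06). In the adult, 16 of 34 NMJ myonuclei held a Tafa4 UMI, against 29 of the other myonuclei, and 1 nucleus held 131 of the 658 UMIs. Ano4, of the anoctamin family, had 0, 200, 288, 2076 and 1779 CPM, against 0.734, 9.74, 2.85, 6.92 and 4.42 CPM (log2 6.64, SE 0.59, adjusted p = 3.2e-06), and the start of Ano4 was also among the regions with higher accessibility (log2 2.08, SE 0.45, adjusted p = 0.010). Tbx21, a transcription factor known from T cells, had 47.5 and 114 CPM in NMJ myonuclei at P5 and in the adult, against 0.259 and 0.617 CPM. Its UMIs came from 23 and 12 nuclei, so no single nucleus set these levels. Tafa4 and Ano4 were at 0 UMIs at E14.5 and, with Tbx21, were higher in the adult class than at WT E18.5.

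Slc28a2, a nucleoside transporter, ran the other way with age, and this gene and those that follow were also chosen after their values were seen. It had 94.3, 168, 187, 140 and 0 CPM in NMJ myonuclei, against 9.54, 9.45, 3.36, 1.38 and 0.309 CPM in the other myonuclei. Cdh20, a cadherin, had 614 CPM in KO NMJ myonuclei, read in 12 of 34 nuclei, and 46.7 CPM in WT NMJ myonuclei at E18.5, against 3.25 and 1.29 CPM in the other myonuclei of the same libraries. Akap11, an anchor of protein kinase A, was higher in every library, by 2.51 (SE 0.30, adjusted p = 7.6e-05) on the log2 scale, as was Map2k1, the kinase above ERK, by 1.66 (SE 0.25, adjusted p = 0.00059). Spry4 and Spry2, feedback inhibitors of growth factor signalling, differed by 2.11 and 1.12 (adjusted p = 0.024 and 0.034). Spred1 and Dusp4, of related families, differed by 0.09 and 0.18 and did not pass. Jam2, a junctional adhesion molecule, was lower in every library (log2 -2.01, SE 0.23, adjusted p = 3.1e-05).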
